A study of Homo sapiens with 54 samples.

Results

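The keratin genes described here are the 55 protein-coding genes on chromosomes 12 and 17 whose symbol is KRT followed by a number and at most 1 letter from A to C, of 19974 protein-coding genes on chromosomes 1 to 22 and X. Genes of keratin-associated proteins (KRTAP) were left out by that rule. The 12q cluster holds 27 of them between positions 52168996 and 52952906 of chromosome 12, and the 17q cluster holds 28 between positions 40654665 and 41624575 of chromosome 17 (GRCh38).

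Keratins are the intermediate filament proteins of epithelial cells. A filament is built from pairs of a type I and a type II keratin. The 12q cluster holds the type II genes and the type I gene KRT18, and the 17q cluster holds type I genes. Different epithelia use different pairs: KRT8 with KRT18 in single-layered epithelia, KRT5 with KRT14 in the basal layer of stratified epithelia, KRT6A, KRT6B and KRT6C with KRT16 or KRT17 in hair follicle sheaths and in wounded skin, KRT1 with KRT10 in the upper epidermis, and other pairs in the root sheath and shaft of the hair.

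The study used ATAC-seq, in which a transposase cuts into open chromatin and the cuts are read by sequencing, on 2 human cancer cell lines. PC3 is a prostate cancer line and MDA-MB-231 is a breast cancer line with mesenchymal features. The 6 groups were PC3 cells that survived cisplatin, a DNA-crosslinking drug, taken 1 day after its removal (PC3 1DPTR) or 10 days after (PC3 10DPTR), untreated PC3 cells (PC3 ctrl), and the same 3 states of MDA-MB-231 (MDA-MB-231 1DPTR, 10DPTR and ctrl). Each group has 3 peak lists, 1 per biological replicate, so n = 3 throughout, and each treated group of a line is compared with the same 3 ctrl lists of that line. The labels used here give no cisplatin dose or exposure time, each line stands for 1 tumour, and the treated groups hold survivors only.

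The measure is the length of DNA under peaks in a gene's window, taken as its body with 10 kb before and after. Each list's lengths were scaled to the same total covered length, and all covered lengths below are scaled kb unless said otherwise. Read depth is unknown because peak lists carry no counts. Treated lists were longer than ctrl lists of the same line: 115050 to 165535 peaks in treated PC3 against 106577 to 114731 in PC3 ctrl, and 100564 to 133526 in treated MDA-MB-231 against 82392 to 98777 in MDA-MB-231 ctrl. How far list length enters a result was not tested, and results with the 50000 peaks of largest area in each list are given beside the main ones. In bulk samples, fewer cells with an open site and less opening per cell cannot be told apart.

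As a check of the lines, the windows of CDKN2A and CDKN2B, known to be deleted in MDA-MB-231, were listed at 0 in all 9 of its lists and held 1.40 to 4.33 unscaled kb in PC3. A deletion marker of PC3 had no peak in any list of either line, so it could not check the PC3 label. A window at 0 means only that the lists as used here hold no peak in it. Of 7 epithelial markers all had peaks in every group, as did all 5 mesenchymal markers. Single mesenchymal markers did not share 1 direction. The window of VIM, the mesenchymal filament gene vimentin, held 2.65 to 3.24 unscaled kb in PC3 and 4.51 to 6.22 in MDA-MB-231. AXL was also higher in MDA-MB-231 (13.6 to 23.9, against 6.33 to 9.09 in PC3). CDH2 was higher in PC3 (4.984 to 9.59, against 3.333 to 4.965 in MDA-MB-231). The ranges of ZEB1 and SPARC overlapped between the lines. The 5 endothelial markers all had peaks in every group. They summed to 29.9 to 36.4 kb in treated PC3 and 32.1 to 35.2 in PC3 ctrl, and to 28.0 to 31.2 in treated MDA-MB-231 and 28.4 to 28.9 in MDA-MB-231 ctrl.

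Promoter sequences (250 bases before an annotated start, RefSeq, GRCh38.p14) were on hand for 34 of the 55 keratin genes. They are shown for 4 genes that differed in whether a peak lay over the promoter: KRT75, a keratin of the hair follicle's companion layer, whose promoter was under a peak in all 9 PC3 lists and in 0 of 9 MDA-MB-231 lists; KRT4, of moist stratified linings such as the oesophagus, whose promoter was under a peak in 3 of 3 MDA-MB-231 1DPTR lists and 0 of 3 ctrl lists; KRT8, of simple epithelia, in all 18 lists; and KRT31, of the hair shaft, in 0 of 18. All 4 lie on the minus strand, at chr12:52434372-52434621 (KRT75), chr12:52814117-52814366 (KRT4), chr12:52926470-52926719 (KRT8) and chr17:41397609-41397858 (KRT31). They are written 5′ to 3′, and capitals mark a match to TATAAA or to GGGCGG on either strand. The KRT8 window lies inside the annotated gene body, 52897191 to 52949860, so it belongs to an internal annotated start. The start at the high-numbered end of that body has no window here.
KRT75: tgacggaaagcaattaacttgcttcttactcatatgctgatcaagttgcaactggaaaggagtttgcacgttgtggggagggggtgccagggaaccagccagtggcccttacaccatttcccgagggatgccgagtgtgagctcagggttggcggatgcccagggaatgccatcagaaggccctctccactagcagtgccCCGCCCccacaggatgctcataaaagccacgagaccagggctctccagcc
KRT4: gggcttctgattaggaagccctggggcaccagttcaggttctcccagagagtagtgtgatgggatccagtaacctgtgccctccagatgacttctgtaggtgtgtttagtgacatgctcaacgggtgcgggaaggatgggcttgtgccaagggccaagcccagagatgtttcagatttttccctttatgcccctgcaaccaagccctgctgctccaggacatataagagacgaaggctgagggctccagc
KRT8: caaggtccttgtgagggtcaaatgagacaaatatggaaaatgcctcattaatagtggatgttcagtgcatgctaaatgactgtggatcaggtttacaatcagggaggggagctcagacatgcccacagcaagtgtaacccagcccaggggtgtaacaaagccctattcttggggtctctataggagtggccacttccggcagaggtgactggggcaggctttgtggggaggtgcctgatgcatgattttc
KRT31: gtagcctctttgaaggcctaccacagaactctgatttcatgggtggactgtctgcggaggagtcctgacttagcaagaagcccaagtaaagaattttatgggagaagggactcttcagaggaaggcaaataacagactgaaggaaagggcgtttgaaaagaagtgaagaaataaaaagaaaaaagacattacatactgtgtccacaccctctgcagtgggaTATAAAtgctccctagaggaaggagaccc
KRT75 holds GGGCGG (the GC box) on the reverse strand 50 bases before the start, and KRT31 holds TATAAA (the TATA box) 29 bases before it. In windows of 250 bases before to 50 after a start, searched on both strands, TATAAA was found in 21 of the 34 keratin genes and in 11.5% of 34961 promoters of all genes. GGGCGG was found in 6 of the 34 and in 45.0% of all promoters, and TGANTCA, the AP-1 motif, in 0 of the 34 and in 7.68% of all promoters. A match is a run of letters and not a bound site.

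Of the 34 genes with a promoter sequence, KRT75, KRT4 and KRT8 had a promoter under a peak in any list. Per list that was 1 to 3 of the 38 promoter windows of these 34 genes, while 46.0% to 50.0% of all promoters were under a peak. The other 21 keratin genes are not in this count, and among them KRT7, KRT18, KRT19 and KRT80 each had a region over the gene body with a peak in all 18 lists. The KRT4 promoter was under a peak in 2 of 3 PC3 1DPTR, 3 of 3 PC3 10DPTR and 1 of 3 PC3 ctrl lists, and in 3 of 3 MDA-MB-231 1DPTR, 0 of 3 MDA-MB-231 10DPTR and 0 of 3 MDA-MB-231 ctrl lists.

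In both lines the 3 keratin genes with the most covered length were KRT7, KRT8 and KRT80. KRT7, of glandular and duct epithelia, averaged 20.6 kb over the 9 PC3 lists and 14.5 kb over the 9 MDA-MB-231 lists, percentiles 99.5 and 98.0 of all genes. KRT8 averaged 12.9 kb in PC3 (percentile 97.7) and 15.3 kb in MDA-MB-231 (percentile 98.3), and KRT80, a type II keratin found in many epithelia, 9.36 kb and 11.4 kb (percentiles 94.8 and 95.6). KRT19, of simple epithelia and the type I gene with the widest coverage, averaged 5.90 kb in PC3 and 7.79 kb in MDA-MB-231. In PC3 the windows of KRT86 (8.66 kb), KRT75 (8.57 kb) and KRT81 (7.43 kb) held more than that of KRT19. Windows of longer genes can hold more peaks, so these are levels of a window and not per length. A peak lay in the window of 25 of the 55 keratin genes in all 18 lists, against 76.8% of all genes, and 13 had none in any list, against 10.9% of all genes.

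**Figure D1:**
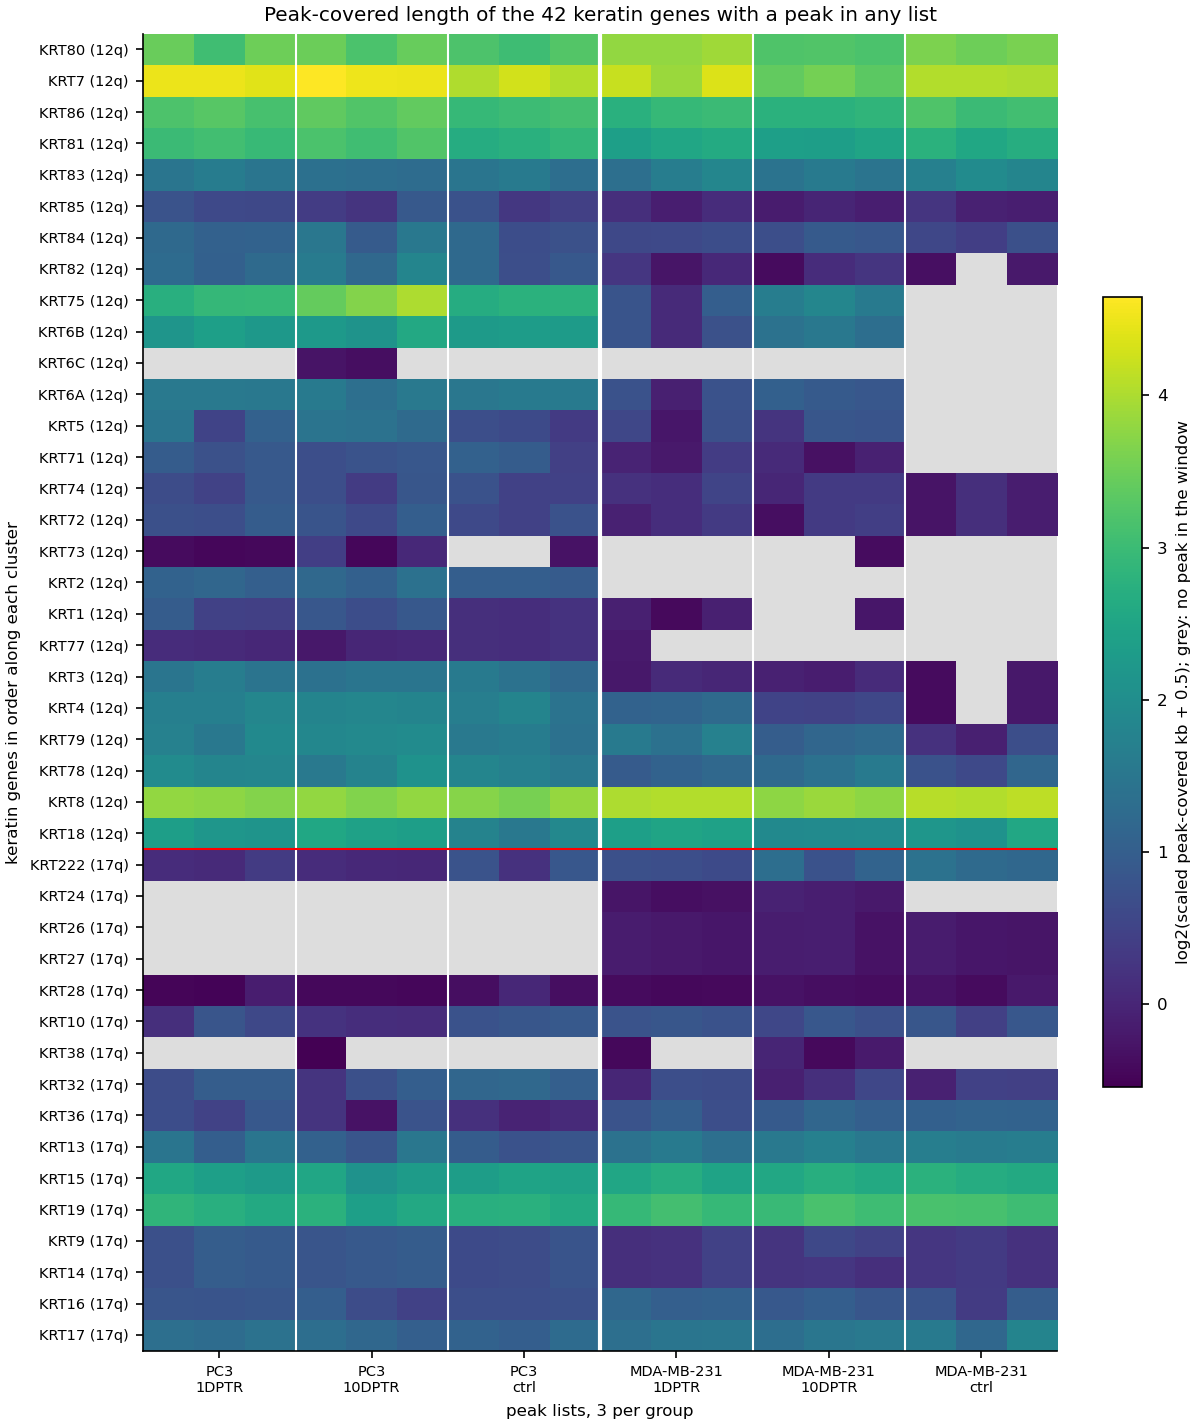
Peak-covered length of the 42 keratin genes with a peak in at least 1 list, in order along the 12q cluster (above the red line) and the 17q cluster. Columns are the 18 lists, 3 per group, colour is log2 of scaled kb plus 0.5, and grey marks windows with no peak, such as KRT75 to KRT71 in the 3 MDA-MB-231 ctrl lists.

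The 13 genes with no peak were KRT76 on 12q and 12 genes of 17q, among them 8 of the 17 hair shaft keratins. Of the 13, 10 lay with 34 KRTAP genes in a stretch of 590.8 kb of 17q, from 40847077 to 41437872, in which none of the 18 lists had a peak. There were 73 peak-free stretches at least as long on the chromosomes analysed, 22 of them with 10 or more genes and 4 with at least as many genes as these 44. On 12q the longest such stretch was 52.4 kb and held KRT76 only. KRT26 and KRT27, of the hair's inner root sheath, share a peak at 40779490 to 40779882 that was present in 0 of 9 PC3 lists and in all 9 MDA-MB-231 lists. KRT2, of the upper epidermis, had peaks in all 9 PC3 lists, at 1.42 to 2.14 kb, and in 0 of 9 MDA-MB-231 lists.

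Coverage was tested with limma on log2(scaled bp + 500) over the 16816 genes that reached 500 bp in 3 or more lists. Of the 55 keratin genes 35 passed that filter, 24 on 12q and 11 on 17q, and 7 more had peaks but did not pass (KRT6C, KRT73, KRT24, KRT26, KRT27, KRT28 and KRT38). Adjusted p-values are Benjamini-Hochberg values over all genes tested, and a gene is called below 0.05. Differences are treated minus ctrl or PC3 minus MDA-MB-231 on that log2 scale, which understates changes of low values. Of the 55 windows 50 overlap another keratin window, so neighbours share peaks. KRT6A, KRT6B and KRT6C, KRT81, KRT83 and KRT86, KRT14, KRT16 and KRT17, and KRT33A and KRT33B are close copies. How the authors treated reads that match several copies is not known here, so the peaks of these genes are uncertain.

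In MDA-MB-231 1 day after cisplatin, a run of 12q keratin genes that had no peak in untreated cells had peaks in every treated list. In the order of the chromosome these were KRT75, KRT6B, KRT6A, KRT5 and KRT71, the last a keratin of the inner root sheath. KRT75 had 1.25, 0.555 and 1.50 kb in the 3 1DPTR lists, 2.66, 3.06 and 2.48 kb in the 3 10DPTR lists, and 0 in each ctrl list. KRT6B, the wound- and follicle-associated keratin, had 1.25, 0.555 and 1.18 kb at 1DPTR, 2.17, 2.38 and 2.03 kb at 10DPTR and 0 in each ctrl list. Every treated list was above every ctrl list, and for both genes the 10DPTR lists were above the 1DPTR lists. The windows of KRT75 and KRT6B overlap, and both held 1.25 and 0.555 kb in the same 1DPTR lists. Their peaks are partly shared, so their values and calls are not independent.

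KRT6A, the close copy of KRT6B, had 1.21, 0.435 and 1.19 kb at 1DPTR, 1.58, 1.41 and 1.32 kb at 10DPTR and 0 in each ctrl list. KRT5, the type II keratin of basal cells, had 0.969, 0.352 and 1.15 kb at 1DPTR, 0.674, 1.29 and 1.24 kb at 10DPTR and 0 in each ctrl list. KRT71 had 0.474, 0.375 and 0.794 kb at 1DPTR, 0.559, 0.302 and 0.456 kb at 10DPTR and 0 in each ctrl list. The 1DPTR and 10DPTR values of KRT5 and KRT71 overlapped, and replicate 2 of 1DPTR was the lowest of its group for all 5 genes.

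All 5 were called at 1DPTR, with adjusted p = 8.21e-06 for KRT75, 2.98e-06 for KRT6B, 8.89e-06 for KRT6A, 0.000776 for KRT5 and 0.000263 for KRT71 (limma, n = 3 per group). At 10DPTR the adjusted p was 1.71e-08, 9.19e-09, 2.14e-07, 9.5e-05 and 0.000667 in the same order. No fold is given because the ctrl group is at 0. A peak in 0 of 3 ctrl and all 6 treated lists was found for 6 of 55 keratin genes, beside 1.33% of all genes. The 6 were the 5 above and KRT24, at 0.285 to 0.471 kb when treated. KRT75 and KRT6B share peaks, so the 6 are not independent. With the 50000 peaks of largest area in each list, KRT75 and KRT6B kept their calls at both times and KRT6A at 10DPTR, while KRT6A at 1DPTR and KRT5 and KRT71 at both times had a difference of 0.

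**Figure D2:**
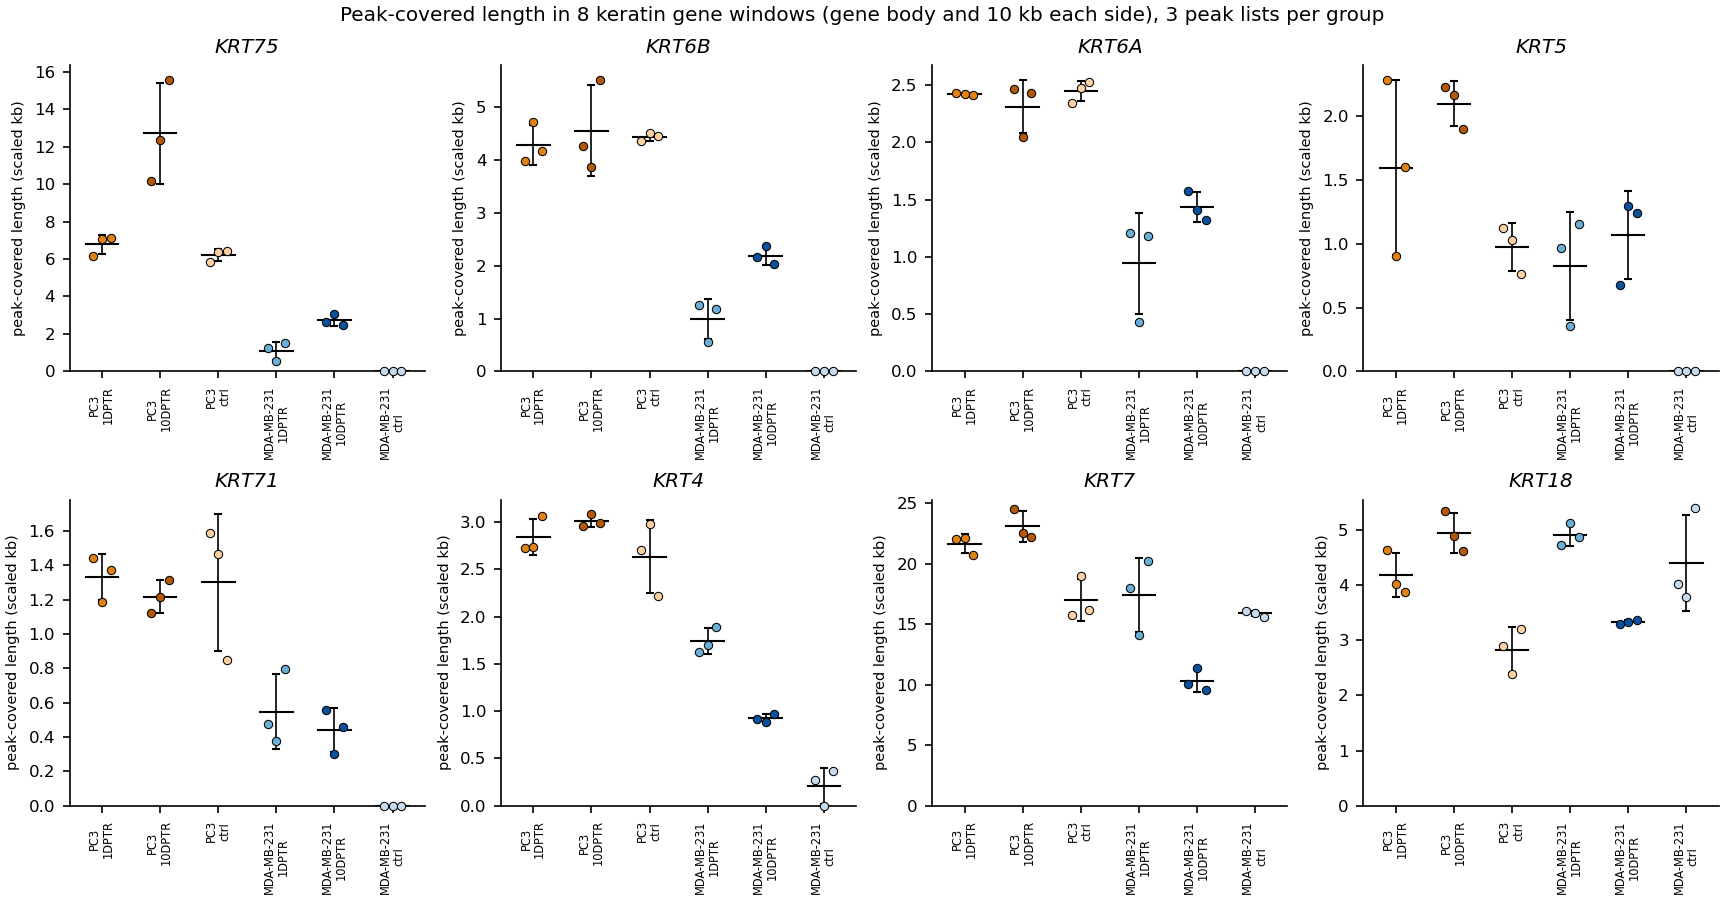
Scaled peak-covered length (kb) of 8 keratin gene windows in each of the 3 lists of each group (points), with the mean (line) and SD (bar). The top row and KRT71 are at 0 in the 3 MDA-MB-231 ctrl lists and above 0 in all treated MDA-MB-231 lists and all PC3 lists.

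The peaks of this run lay mostly outside the gene bodies. In MDA-MB-231 ctrl no list had a peak over 190.7 kb, from 52391961 to 52582660, a stretch that spans the bodies of 8 keratin genes from KRT82 to KRT74. The widest gained site was 2861 bp at 52440634 to 52443494, 3157 bp from KRT6B and within 10 kb of KRT75. It had a peak in 3 of 3 1DPTR and 3 of 3 10DPTR lists, with areas at percentiles 57.2 to 73.7 of their lists at 1DPTR and 86.0 to 90.7 at 10DPTR, and a peak in all 9 PC3 lists. Another gained site lay 2840 bp from KRT6A, at 52496097 to 52497273. The promoter of KRT75 itself stayed without a peak in all 9 MDA-MB-231 lists, and with the gene body alone or 5 kb on each side the difference for KRT75 was 0 at both times, so its call came from sites more than 5 kb from the gene body.

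**Figure D3:**
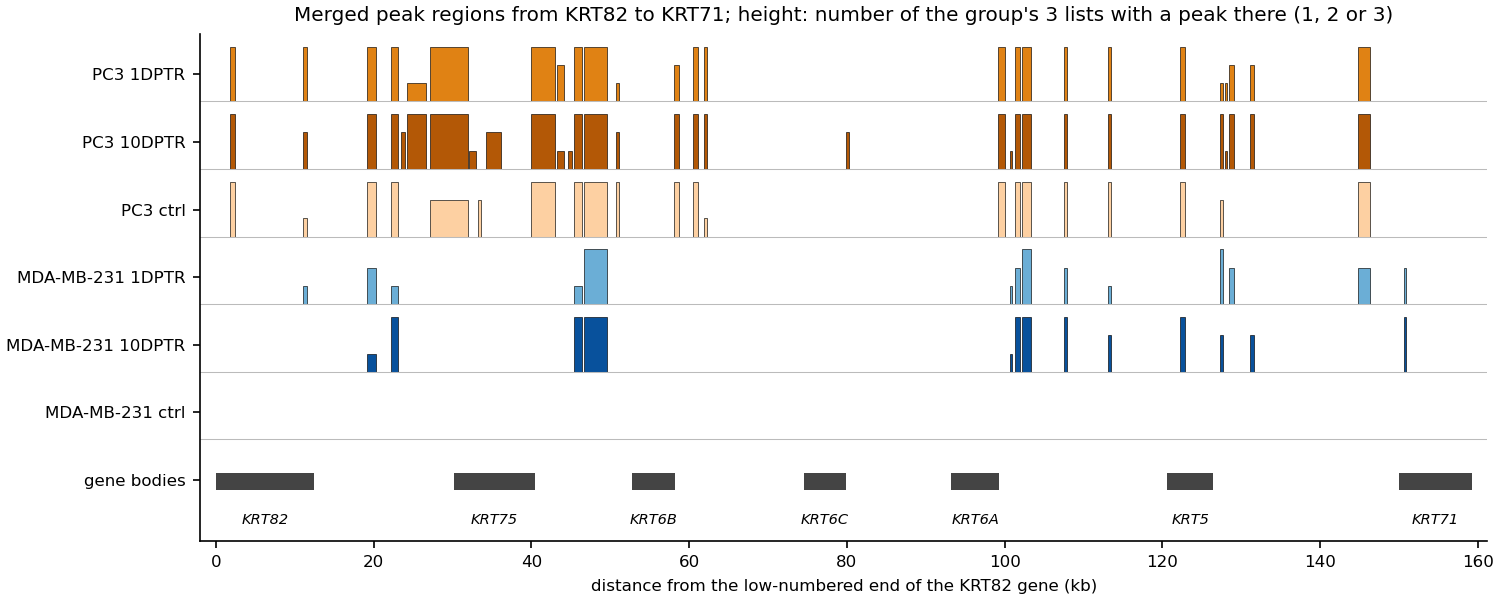
Merged peak regions from KRT82 to KRT71 by distance in kb from the low-numbered end of KRT82, 1 row per group, with bar height for the number of the group's 3 lists that have a peak. The MDA-MB-231 ctrl row is empty, and all but 1 of the sites in the treated MDA-MB-231 rows are also present in PC3 rows.

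Farther along 12q, KRT4 had 1.63, 1.70 and 1.89 kb at 1DPTR, 0.915, 0.887 and 0.971 kb at 10DPTR, and 0.266, 0 and 0.363 kb in ctrl. All treated lists were above all ctrl lists, and the 1DPTR lists were above the 10DPTR lists. The difference was 1.69 ± 0.15 (SE, adjusted p = 9.88e-07, limma) at 1DPTR and 1.04 ± 0.15 (adjusted p = 6.37e-05) at 10DPTR. KRT79, found in the duct of the hair follicle's gland, had 2.52, 2.12 and 2.82 kb at 1DPTR, 1.49, 1.75 and 1.88 kb at 10DPTR and 0.645, 0.438 and 1.12 kb in ctrl. The groups did not overlap, and it differed by 1.30 ± 0.16 (adjusted p = 2.11e-05) and 0.87 ± 0.16 (adjusted p = 0.000599) from ctrl.

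In all, 9 of the 35 keratin genes tested rose and 1 fell in MDA-MB-231 1DPTR against ctrl, beside 10.9% of all genes higher and 15.5% lower (26.4% in all). All 9 lie on 12q. Those not yet named were KRT1, with 0.440, 0.248 and 0.440 kb at 1DPTR and 0 in each ctrl list (adjusted p = 0.00498), and KRT3, of the cornea, which differed by 0.49 ± 0.16 (adjusted p = 0.0319). KRT222, a shortened type I keratin, was the 1 that fell, at -0.60 ± 0.16 (adjusted p = 0.0119). KRT3 was not called with 1DPTR replicate 2, 1DPTR replicate 3 or ctrl replicate 2 left out (adjusted p up to 0.177). With the 50000 peaks of largest area 6 keratin genes rose and 0 fell, and with the gene body alone 2 rose and 0 fell. Some keratin genes did not pass the filter with the gene body alone and were not tested there, so that count of 2 is not over the same 35 genes. Same-numbered lists of these groups deviated together and were read as pairs, though the labels do not state pairing. With the replicate block KRT80 (adjusted p = 0.00897) and KRT82, a hair keratin (adjusted p = 0.0479), were also called.

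Of 6 keratinocyte markers, KRT5, KRT1 and IVL, an envelope protein of the upper epidermis, were at 0 in MDA-MB-231 ctrl, and all 6 had peaks in both treated groups. The 6 summed to 6.63 to 8.26 kb at 1DPTR, 6.36 to 9.06 kb at 10DPTR and 4.17 to 5.56 kb in ctrl. Whether other cells have a part in this was not tested, and 4 of the 6 are keratin genes described here.

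In MDA-MB-231 at 10 days KRT75, KRT6B, KRT6A, KRT5, KRT71, KRT4 and KRT79 were again higher than in untreated cells, and KRT7, KRT8, KRT18 and KRT80 were lower. The count was 9 higher and 7 lower of 35, beside 11% higher and 16.7% lower of all genes (27.7% in all). The other higher ones were KRT3 (0.50 ± 0.16, adjusted p = 0.0287) and KRT78, of stratified epithelia (0.56 ± 0.15, adjusted p = 0.0104). KRT7 had 10.0, 11.4 and 9.57 kb at 10DPTR and 16.1, 15.9 and 15.6 kb in ctrl. The groups did not overlap, and KRT7 fell by 0.60 ± 0.10 on the log2 scale (adjusted p = 0.000398, limma).

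KRT8 fell to 13.1, 14.1 and 13.0 kb at 10DPTR, against 16.6, 16.1 and 17.1 kb in ctrl, without overlap (-0.30 ± 0.07, adjusted p = 0.00408). Its partner KRT18 had 3.30, 3.33 and 3.37 kb at 10DPTR and 4.02, 3.78 and 5.41 kb in ctrl (-0.34 ± 0.11, adjusted p = 0.0333). The bodies of KRT8 and KRT18 overlap, and most of the KRT18 window lies inside the KRT8 window, so their values and calls are not independent. The other 4 were KRT80 (-0.37 ± 0.11), and the hair keratins KRT86 (-0.29 ± 0.08), KRT81 (-0.25 ± 0.09) and KRT83 (-0.35 ± 0.11), with adjusted p between 0.0135 and 0.0367.

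Of the 7 falls only that of KRT7 was called under every scaling tried. The split was 7 higher and 2 lower with no scaling, and 9 higher and 1 lower with scaling by the median ratio over genes. In the scaling used here the median difference of all genes from ctrl was -0.09 and -0.11 in MDA-MB-231 at 1DPTR and 10DPTR and -0.07 and -0.16 in PC3, and with the median ratio it was within 0.01 of 0. Calls of KRT80, KRT86, KRT81, KRT83, KRT3, KRT78 and KRT18 were also lost with 1 list left out, with adjusted p up to 0.183. These were 10DPTR replicates 1 (KRT81, KRT83, KRT3, KRT18), 2 (KRT81, KRT18) and 3 (KRT80, KRT83, KRT3, KRT78, KRT18), and ctrl replicates 1 (KRT86, KRT81), 2 (KRT83, KRT3, KRT78) and 3 (KRT81, KRT83, KRT18). With the 50000 peaks of largest area 6 rose and 1 fell.

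Between the 2 times in MDA-MB-231, 2 keratin genes were higher and 5 lower at 10DPTR than at 1DPTR, beside 2.13% higher and 3.24% lower of all genes (5.38% in all). KRT75 (1.06 ± 0.18, adjusted p = 0.00207) and KRT6B (0.88 ± 0.15, adjusted p = 0.00248) were higher. KRT80 had 8.84, 8.88 and 8.52 kb at 10DPTR and 13.5, 13.5 and 14.6 kb at 1DPTR, a fall of 0.64 ± 0.11 on the log2 scale (adjusted p = 0.00197). KRT7 fell by 0.72 ± 0.10 (adjusted p = 0.00075), its 1DPTR lists having 18.0, 14.1 and 20.2 kb. KRT4 (-0.65 ± 0.15), KRT18 (-0.50 ± 0.11) and KRT8 (-0.24 ± 0.07) were called with adjusted p of 0.0155, 0.0154 and 0.0494. KRT4 lost its call without 1DPTR replicate 3 or 10DPTR replicate 2 and KRT18 without 1DPTR replicates 2 or 3 or 10DPTR replicate 1, with adjusted p up to 0.0789 and 0.065. KRT8 lost it with any 1 of the 6 lists left out (adjusted p up to 0.155).

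Sites were also followed one by one. Peaks of the 18 lists merged into 146 regions at the 12q cluster and 48 at the 17q cluster, of which 33 and 10 were present in all 18 lists. In MDA-MB-231, of 116 cluster regions seen in the 1DPTR or ctrl lists, 14 were present in 3 of 3 1DPTR lists and 0 of 3 ctrl lists and 1 the other way, beside 8.77% and 0.755% of all regions seen in those groups. At 10DPTR the counts were 14 and 2 of 107, beside 11.2% and 1%. Of the 14 at 10DPTR, 8 lay nearest to KRT75, KRT6B, KRT6A, KRT5 or KRT71. The 2 lost at 10DPTR lay nearest to KRT80, at 52172967 to 52176584 and at 52206033 to 52206885, and both were present in 3 of 3 1DPTR lists. Between 1DPTR and 10DPTR, 3 of 123 regions were gained and 10 lost, beside 2.38% and 2.52% of all regions; 4 of the 10 were nearest to KRT80 and 4 nearest to KRT8 or KRT18. The KRT4 promoter lies in 1 of the 10, at 52814028 to 52814976.

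In PC3 KRT7 and KRT18 rose at both times in the main fit, but the call of KRT18 at 1DPTR depended on the peak set and window. At 1DPTR 4 of 35 keratin genes rose and 0 fell, beside 6.02% higher and 7.24% lower of all genes (13.3% in all). With no scaling 10 rose and 0 fell, and with the median ratio 6 rose and 0 fell. KRT7 had 22.1, 22.1 and 20.7 kb in PC3 1DPTR and 15.8, 18.9 and 16.1 kb in PC3 ctrl (0.35 ± 0.10, adjusted p = 0.0368). KRT18 had 4.64, 4.02 and 3.89 kb in 1DPTR and 2.91, 2.38 and 3.20 kb in ctrl (0.50 ± 0.11, adjusted p = 0.011). Neither pair of groups overlapped. KRT36, a hair keratin (0.61 ± 0.19, adjusted p = 0.0439), and KRT13, the type I partner of KRT4 (0.47 ± 0.15, adjusted p = 0.0454), were the others. All 4 calls were lost with some list left out, with adjusted p up to 0.119 for KRT7, 0.0525 for KRT18, 0.156 for KRT36 and 0.159 for KRT13. For KRT7 these were 1DPTR replicates 1, 2 and 3 and ctrl replicates 1 and 3. For KRT18 it was 1DPTR replicate 1. For KRT36 and KRT13 they were 1DPTR replicates 1 and 3 and any ctrl replicate. With the 50000 peaks of largest area KRT7 kept its call, while KRT18 (0.0255), KRT36 (0.131) and KRT13 (0.103) lost theirs. With the gene body only, KRT18 (0.0167) and KRT7 (0.41) were not called.

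At 10DPTR 9 of 35 rose and 2 fell in PC3, beside 11.8% higher and 33.1% lower of all genes (44.9% in all). KRT18 had 5.35, 4.89 and 4.63 kb at 10DPTR, above all ctrl lists (0.72 ± 0.11, adjusted p = 0.000151, limma). KRT75 had 10.2, 12.4 and 15.6 kb at 10DPTR and 5.87, 6.37 and 6.44 kb in ctrl, without overlap (0.95 ± 0.18, adjusted p = 0.000544). KRT5 had 2.23, 2.16 and 1.89 kb at 10DPTR and 1.13, 1.03 and 0.765 kb in ctrl (0.82 ± 0.24, adjusted p = 0.0112). KRT7 again rose, with 24.5, 22.5 and 22.2 kb at 10DPTR (0.44 ± 0.10, adjusted p = 0.00299).

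The other rises were KRT1 (0.64 ± 0.18), KRT82 (0.61 ± 0.22), KRT84 (0.44 ± 0.16), KRT81 (0.39 ± 0.09) and KRT86 (0.32 ± 0.08), the last 4 hair keratins, with adjusted p from 0.00186 to 0.0333. KRT10, the partner of KRT1, fell to 0.658, 0.602 and 0.582 kb at 10DPTR, against 1.21, 1.29 and 1.37 kb in ctrl (-0.68 ± 0.15, adjusted p = 0.00147), and KRT222 fell by 0.55 ± 0.16 (adjusted p = 0.0112). KRT84, KRT82, KRT5 and KRT222 lost their calls with a list left out, with adjusted p up to 0.129. These were 10DPTR replicates 1 and 3 (KRT84, KRT82) and ctrl replicates 1 (KRT222), 2 (KRT84, KRT82) and 3 (all 4). The split was 14 higher and 1 lower with no scaling and 16 higher and 2 lower with scaling by the median ratio. With the 50000 peaks of largest area KRT84 (0.61), KRT82 (0.32), KRT1 (0.31) and KRT222 (-0.81) were not called, and the others kept their calls.

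Between 10DPTR and 1DPTR in PC3, KRT75 alone was called of the 35 (0.84 ± 0.18, adjusted p = 0.00822), higher at 10DPTR, beside 2.19% higher and 5.5% lower of all genes (7.7% in all). A region of KRT75's window at 52418128 to 52420563 was present in 3 of 3 PC3 10DPTR lists, 1 of 3 1DPTR lists and 0 of 3 ctrl lists. In the region at 52421058 to 52425867, which overlaps the gene body, the peaks' areas were at percentiles 99.4 to 99.6 of the 10DPTR lists, 41.2 to 82.2 of the 1DPTR lists and 19.9 to 31.0 in the 2 ctrl lists that had one. Over both clusters, 6 of 154 regions were gained and 0 lost at 1DPTR (4.92% and 0.465% of all regions), and 12 of 169 gained and 2 lost at 10DPTR (11% and 1.38%). Between 10DPTR and 1DPTR, 0 of 169 were gained and 1 lost (2.67% and 1.1%). Of the 12 gained at 10DPTR, 3 lay nearest to KRT18.

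**Figure D4:**
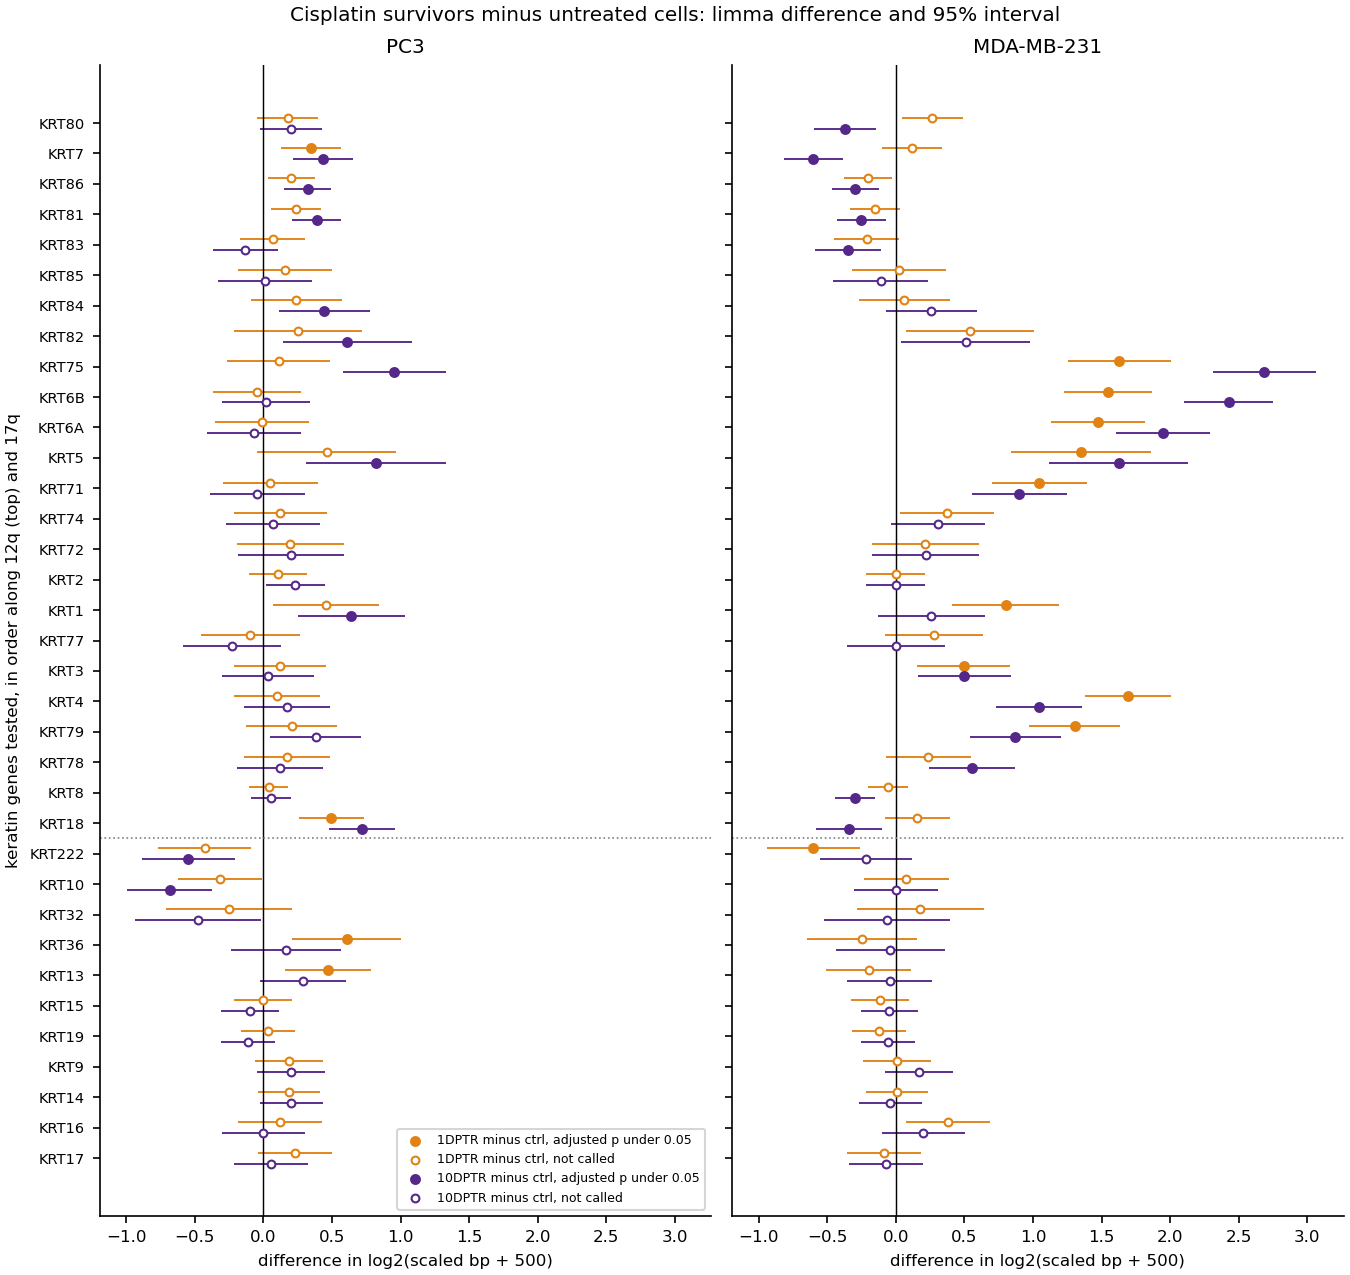
limma differences from ctrl in log2(scaled bp + 500) for the 35 keratin genes tested, with 95% intervals, at 1DPTR (orange) and 10DPTR (purple), in PC3 (left) and MDA-MB-231 (right); filled points have an adjusted p under 0.05. KRT75, KRT6B, KRT6A, KRT5, KRT71 and KRT1 were at 0 in MDA-MB-231 ctrl, so the place of their points there depends on the 500 bp added; KRT7 and KRT18 lie above 0 in PC3 and below 0 at 10DPTR in MDA-MB-231.

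Whether the changes differed between the lines was tested in the same limma fit as PC3 change minus MDA-MB-231 change. At 1DPTR 0 keratin genes were higher and 6 lower, beside 1.86% higher and 3.44% lower of all genes (5.3% in all). The 6 were KRT75, KRT6B, KRT6A, KRT71, KRT4 and KRT79, whose change was lower in PC3. For KRT4 the term was -1.59 ± 0.21 (adjusted p = 0.00028). KRT4 had 2.73, 2.74 and 3.07 kb in PC3 1DPTR and 2.71, 2.98 and 2.22 kb in PC3 ctrl, which overlap. KRT71 was not called when MDA-MB-231 1DPTR replicate 3 was left out. The terms of KRT6A (0.16), KRT71 (0.14), KRT4 (-0.31) and KRT79 (-0.31) were not called with the 50000 peaks of largest area, nor was that of KRT75 with 5 kb on each side (0.15).

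At 10DPTR 6 were higher and 6 lower, beside 5.82% higher and 10.6% lower of all genes (16.4% in all). KRT7 (1.04 ± 0.15, adjusted p = 0.000175) and KRT18 (1.06 ± 0.16, adjusted p = 0.000308) rose in PC3 and fell in MDA-MB-231. KRT81 (0.64 ± 0.12), KRT86 (0.62 ± 0.12), KRT80 (0.57 ± 0.15) and KRT8 (0.35 ± 0.10) also had higher terms, with adjusted p from 0.00179 to 0.0192. The lower 6 were KRT75, KRT6B, KRT6A, KRT71, KRT4 and KRT10. For KRT75 the sign depends on the scale and the window. Its window held 12.7 ± 2.71 kb in PC3 10DPTR and 6.22 ± 0.31 kb in PC3 ctrl, and 2.73 ± 0.30 kb in MDA-MB-231 10DPTR and 0 in MDA-MB-231 ctrl (SD, n = 3), so the difference of means in kb was larger in PC3. With the gene body only its term was 1.45 (adjusted p = 0.00104) and with 5 kb on each side 1.30 (adjusted p = 0.000181), called in the other direction. For KRT4 the term was 0.92 with the 50000 peaks of largest area and 0.69 with 5 kb, neither called. KRT10 had 1.15 ± 0.18 kb in MDA-MB-231 10DPTR and 1.16 ± 0.26 kb in MDA-MB-231 ctrl (SD, n = 3), and its term was -0.68 ± 0.21 (adjusted p = 0.0318). KRT8 was not called without MDA-MB-231 ctrl replicate 3 (adjusted p = 0.0517). KRT10 was not called without any 1 of 7 lists, namely replicate 2 or 3 of PC3 10DPTR, PC3 ctrl and MDA-MB-231 10DPTR, or replicate 2 of MDA-MB-231 ctrl (adjusted p up to 0.0854). With no scaling the split at 10DPTR was 6 higher and 3 lower.

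The untreated lines already differed at most keratin genes. In ctrl, 19 of 35 were higher and 10 lower in PC3 than in MDA-MB-231, beside 21% higher and 44.3% lower of all genes (65.2% in all). At 1DPTR it was 21 and 4, beside 20.4% and 42.5% (63% in all), and at 10DPTR 23 and 6, beside 19.2% and 48.8% (67.9% in all). Scaled by the median ratio, the splits were 22 and 4 in ctrl, 22 and 1 at 1DPTR and 26 and 3 at 10DPTR, and with no scaling 25 and 2 at 10DPTR. A gene could pass the filter through the lists of a single line. KRT2, with peaks in 9 PC3 lists and 0 MDA-MB-231 lists, passed and counts as higher in PC3. KRT1 and KRT77, at most 0.440 and 0.391 kb in any MDA-MB-231 list, also passed through PC3 lists only and count as higher in PC3. KRT24, KRT26 and KRT27, with peaks in MDA-MB-231 only, did not pass, nor did KRT6C, with peaks in PC3 only. The 35 thus hold no gene with peaks in MDA-MB-231 only, which limits these splits and those by cluster below.

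Of the 24 genes tested on 12q, 16 were higher and 4 lower in PC3 ctrl than in MDA-MB-231 ctrl. Among the 16, KRT1 and KRT77 have overlapping windows and the same values in PC3 ctrl (0.627 ± 0.029 kb, SD), so they are not independent. KRT75 had 5.87, 6.37 and 6.44 kb in PC3 ctrl and 0 in each MDA-MB-231 ctrl list (adjusted p = 1.41e-11). KRT6B had 4.36, 4.51 and 4.45 kb in PC3 ctrl and KRT6A 2.35, 2.47 and 2.52 kb, both against 0 in each MDA-MB-231 ctrl list. KRT4 (2.17 ± 0.15, adjusted p = 1.25e-09) and KRT3 (1.94 ± 0.16, adjusted p = 1.41e-08) were also higher in PC3. Over both clusters 39 of 138 regions had a peak in 3 of 3 PC3 ctrl and 0 of 3 MDA-MB-231 ctrl lists, 32 of them on 12q, and 8 the other way, beside 20.1% and 9.7% of all regions. At 1DPTR these counts were 32 and 8 of 170 (15.5% and 8.81%), and at 10DPTR 45 and 9 of 173 (17.8% and 7.65%).

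Genes with the opposite sign were mostly simple-epithelial or on 17q. Of the 11 genes tested on 17q, 3 were higher and 6 lower in PC3 ctrl. Of the 3, KRT9 and KRT14 have overlapping windows and the same values, 1.12 ± 0.12 kb in PC3 ctrl and 0.703 ± 0.062 kb in MDA-MB-231 ctrl (SD). Their calls are therefore not independent. KRT36 (-1.0 ± 0.19, adjusted p = 0.000179), KRT13 (-0.80 ± 0.15, adjusted p = 0.00015), KRT18 (-0.55 ± 0.11, adjusted p = 0.000388) and KRT8 (-0.39 ± 0.07, adjusted p = 9.24e-05) were lower in PC3. At 10DPTR the sign of KRT18 was the other way (0.51 ± 0.11, adjusted p = 0.000775), but it was -0.16 with the 50000 peaks of largest area, -0.035 with the gene body only and 0.07 with the upper part of each list by area, none of them called. KRT7 was higher in PC3 at 10DPTR (1.12 ± 0.10, adjusted p = 6.08e-08). The calls of KRT85, KRT15 and KRT17 in ctrl were lost with a list left out (adjusted p up to 0.105), which was PC3 ctrl replicate 1 (KRT85, KRT15) or MDA-MB-231 ctrl replicates 1 (KRT15), 2 (KRT85, KRT15) or 3 (KRT85, KRT17).

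Summed over the whole 12q cluster, peaks covered 95.4 ± 3.49 kb in PC3 1DPTR, 105.7 ± 5.85 kb in PC3 10DPTR and 84.9 ± 0.179 kb in PC3 ctrl (SD, n = 3). In MDA-MB-231 they covered 77.1 ± 6.25 kb at 1DPTR, 61.8 ± 3.14 kb at 10DPTR and 69.7 ± 2.01 kb in ctrl. All treated PC3 lists were above all PC3 ctrl lists, and all MDA-MB-231 10DPTR lists were below all MDA-MB-231 ctrl lists. MDA-MB-231 1DPTR and ctrl overlapped, with 70.8 kb in 1DPTR replicate 2 and 71.0 kb in ctrl replicate 1. Over both lines 1DPTR was higher than ctrl by 0.15 on the log2 scale (two-sided exact permutation test within lines, p = 0.01, adjusted over 8 cluster tests 0.0267, smallest possible p = 0.005). That call was lost with the 50000 peaks of largest area (0.28, adjusted p = 0.0533) and with the upper part of each list by area (0.20, adjusted p = 0.08, exact permutation tests). For 10DPTR the difference was 0.07 (adjusted p = 0.554, exact permutation), the mean of 0.31 in PC3 and -0.17 in MDA-MB-231. Within 1 line 3 lists against 3 cannot give a p below 0.1. PC3 was higher than MDA-MB-231 by 0.45 over the 3 states (exact permutation, p = 0.00025, the smallest possible, adjusted p = 0.001).

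The 17q cluster had less peak-covered length and smaller differences. It held 18.5 ± 0.604, 17.0 ± 1.33 and 18.7 ± 0.377 kb in PC3 1DPTR, 10DPTR and ctrl, and 19.7 ± 0.802, 21.9 ± 0.445 and 21.1 ± 0.792 kb in the same states of MDA-MB-231. The difference from ctrl over both lines was -0.06 at 1DPTR (adjusted p = 0.15) and -0.04 at 10DPTR (adjusted p = 0.554, exact permutation tests). The difference of PC3 from MDA-MB-231 was -0.20 (exact permutation, adjusted p = 0.001). That call was lost with no scaling (-0.035) and when scaled to the rest of chromosome 17 (-0.062).

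**Figure D5:**
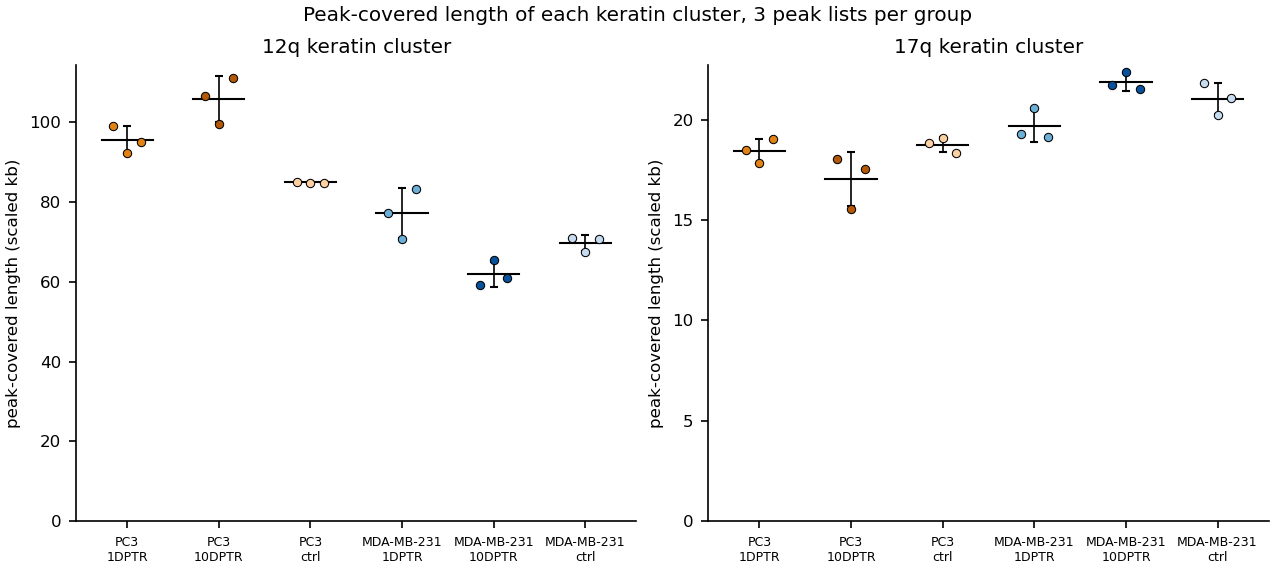
Scaled peak-covered length (kb) of the 12q cluster (left) and the 17q cluster (right) in the 3 lists of each group (points), with the mean (line) and SD (bar), both axes from 0. On 12q the treated PC3 lists lie above the PC3 ctrl lists and the MDA-MB-231 10DPTR lists below the MDA-MB-231 ctrl lists.

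By the epithelium a keratin is known from, 4 of 8 tested basal and activated keratins rose in MDA-MB-231 at 1DPTR. So did 4 of 10 suprabasal ones and 1 of 3 of the inner root sheath, beside 10.9% of all genes. Of simple-epithelial and hair shaft keratins, 0 of 5 and 0 of 8 rose. KRT75, of the hair follicle's companion layer, was counted with the basal and activated keratins. It is among the rises of that class here and in PC3, and shares peaks with KRT6B. At 10DPTR in that line 4 of the 5 simple-epithelial and 3 of the 8 hair shaft keratins fell, beside 16.7% of all genes, and of these falls only that of KRT7 was called with the median ratio. The windows of KRT8 and KRT18, and those of KRT81 and KRT86, overlap, so these falls are not independent. In PC3 at 10DPTR 2 of 5 simple-epithelial, 2 of 8 basal and activated, 1 of 10 suprabasal and 4 of 8 hair shaft keratins rose, beside 11.8% of all genes. The 4 hair shaft genes were KRT86, KRT81, KRT84 and KRT82, which are not independent. The body of KRT81 lies inside that of KRT86, and the windows of KRT84 and KRT82 overlap. With the gene body only KRT81 was not called (0.0132), and KRT84 and KRT82 lost their calls with a list left out. Medians over the 35 genes, beside those of all genes, were 0.16 and -0.07 in PC3 1DPTR, 0.16 and -0.16 in PC3 10DPTR, 0.16 and -0.09 in MDA-MB-231 1DPTR and 0 and -0.11 in MDA-MB-231 10DPTR.

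The type I keratins of basal and simple epithelia on 17q were not called against ctrl in either line. KRT14, the partner of KRT5, had 1.35 ± 0.18 kb in PC3 1DPTR, 1.37 ± 0.095 kb in PC3 10DPTR and 1.12 ± 0.12 kb in PC3 ctrl (adjusted p 0.245 and 0.134). In MDA-MB-231 it had 0.715 ± 0.147 kb, 0.669 ± 0.050 kb and 0.703 ± 0.062 kb in the same states (adjusted p 0.968 and 0.813). KRT17 had 2.22 ± 0.13 kb in MDA-MB-231 1DPTR, 2.25 ± 0.22 kb in 10DPTR and 2.43 ± 0.59 kb in ctrl (-0.09, adjusted p = 0.642, and -0.07, adjusted p = 0.696). With the 50000 peaks of largest area it was higher than ctrl at both times instead (0.85, adjusted p = 0.00107, and 0.86, adjusted p = 0.000713). KRT15, of basal cells, had 5.41 ± 0.46, 5.68 ± 0.33 and 5.89 ± 0.36 kb, and KRT19 had 7.43 ± 0.52, 7.81 ± 0.54 and 8.14 ± 0.35 kb in those 3 groups. The lowest adjusted p of KRT15 and KRT19 against ctrl in either line was 0.342.

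Genes that anchor, regulate or accompany keratins did not share 1 direction. The shares of all genes that rose and fell, beside which the counts of each list are to be read, were 10.9% and 15.5% in MDA-MB-231 1DPTR, 11% and 16.7% in MDA-MB-231 10DPTR, 6.02% and 7.24% in PC3 1DPTR and 11.8% and 33.1% in PC3 10DPTR. Over all related lists 32, 42, 20 and 56 genes were called in these 4 comparisons, and 7, 11, 9 and 34 with the 50000 peaks of largest area. Of 22 desmosome and hemidesmosome genes, 3 rose and 3 fell in MDA-MB-231 1DPTR, 1 and 5 in MDA-MB-231 10DPTR, 2 and 0 in PC3 1DPTR and 3 and 8 in PC3 10DPTR. PKP1, a plakophilin of desmosomes, averaged 6.60 ± 0.36 kb in MDA-MB-231 1DPTR, 8.36 ± 0.56 kb in 10DPTR and 3.33 ± 0.055 kb in ctrl (0.89 ± 0.10, adjusted p = 8.21e-06, and 1.21 ± 0.10, adjusted p = 1.43e-07), and also rose in PC3 10DPTR (0.50 ± 0.10, adjusted p = 0.000739). Of 26 factors known to act on keratin genes, 3 rose and 7 fell, 2 and 6, 0 and 3, and 2 and 13 in the same 4 comparisons. ELF5, an epithelial factor, rose in MDA-MB-231 (0.87 ± 0.12 and 1.04 ± 0.12), and GATA3 fell in MDA-MB-231 10DPTR (-0.66 ± 0.11) and PC3 10DPTR (-0.84 ± 0.11).

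Of 15 other intermediate filament genes, 0 rose and 4 fell in MDA-MB-231 1DPTR, 0 and 6 in MDA-MB-231 10DPTR, 0 and 1 in PC3 1DPTR and 1 and 3 in PC3 10DPTR. LMNB1, of the nuclear lamina, fell in all 4 (-0.44, -0.42, -0.32 and -0.45), and VIM fell in MDA-MB-231 1DPTR (-0.31 ± 0.07, adjusted p = 0.00575). Of 14 cornified envelope genes, which act with keratins late in epidermal differentiation, 2 rose and 0 fell in each MDA-MB-231 comparison, 3 and 0 in PC3 1DPTR and 6 and 1 in PC3 10DPTR. CSTA, a protease inhibitor of the envelope, rose by 1.1 ± 0.11 in PC3 1DPTR (adjusted p = 2.27e-05) and 1.11 ± 0.11 in PC3 10DPTR (adjusted p = 2.36e-06). Beside the same shares of all genes, 9, 13, 6 and 9 of 22 KRTAP genes tested rose and 0, 0, 0 and 5 fell in the same order. All 22 lie on chromosome 21. How far their windows share peaks was not counted, so these calls may come from fewer sites than genes. None of the 34 KRTAP genes on chromosome 17 had a peak in any list. Of 20 genes beside the clusters, 0 rose and 1 fell, 0 and 7, 2 and 3, and 2 and 3.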

How the data were processed

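The 18 ATAC-seq peak lists (6 groups of 3) come from 54 samples, since the labels give 3 experimental replicates for each biological replicate. How these were combined was not stated. Per the submitters' processing notes, the tools were Genrich 0.6.2, R 4.4.1, SAMtools 1.6, Picard, Bowtie2 2.3.5.1 and FastQC 0.12.1, and the build was hg38 (GRCh38). The treatment of reads with several matches was not stated. Each list was assigned from the cell line, treatment state and replicate in its name, and 0 columns of other samples were found. The authors' score in column 7 was taken to be peak area, from its values (lowest 200), and the deposited column 8 is a -log10 p-value (lowest 2.52). Area served only to rank peaks within a list.

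Covered length per RefSeq gene window was summed with Python 3.11.15, numpy 2.4.6 and pandas 2.3.3, scaled to a common total, and fitted as log2(bp + 500) with limma 3.58.1 in R 4.3.3 (variance trend, all groups in 1 fit, 12 residual degrees of freedom). The fit was tested on simulated data. P-values measure the spread between lists. Regions are merged peaks, and a list has one where a peak overlaps it by at least 1 bp.

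Keratin genes and gene lists were chosen with earlier results of these data known. A further marker list is not reported here. Named are called keratin genes (up to 10 per direction), 11 simple, basal and hair keratins whatever their result, and up to 4 genes per related list with the smallest p. Same-numbered lists deviated together, with every correlation over 0.1, for MDA-MB-231 1DPTR and ctrl (0.193 to 0.389). The same held for MDA-MB-231 10DPTR and 1DPTR (0.197 to 0.419) and PC3 10DPTR and 1DPTR (0.132 to 0.345). Replicate numbers were read as pairs in those comparisons, though the labels do not state pairing. Same-numbered lists of PC3 and MDA-MB-231 at 1DPTR also had correlations of 0.0476 to 0.190. The main fit and the permutation tests did not use the pairs. They entered only through the replicate block, as an alternative. Alternatives were other peak sets, windows, pseudocounts (100 and 1000 bp), scalings, no filter, the replicate block and leaving out each list.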

Additional observations from a re-analysis of the deposited data

Results flagged for a closer look

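These keratin genes are listed because their change after cisplatin differed between the lines by the limma interaction term (PC3 change minus MDA-MB-231 change, log2, adjusted p under 0.05 over all genes). At 1DPTR the terms were -1.52 for KRT75, -1.59 for KRT6B, -1.49 for KRT6A, -1.0 for KRT71, -1.59 for KRT4 and -1.10 for KRT79. At 10DPTR they were 0.57 for KRT80, 1.04 for KRT7, 0.62 for KRT86, 0.64 for KRT81, 0.35 for KRT8 and 1.06 for KRT18, and -1.73 for KRT75, -2.41 for KRT6B, -2.02 for KRT6A, -0.94 for KRT71, -0.87 for KRT4 and -0.68 for KRT10. For KRT75, KRT6B, KRT6A and KRT71, which were at 0 in MDA-MB-231 ctrl, the size of the term depends on the 500 bp added before the log. The terms of KRT75, KRT6A, KRT71 and KRT4 also changed sign under other windows or peak sets, as given with the other values that depend on the processing.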

How the results depend on the processing

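Of 2573 values recomputed for the 150 pairs of a named keratin gene and a comparison that called it, 2252 stayed called in the same direction, 298 lost the call and 23 changed sign. The peak lists carry no read depth, so no counting error can be given, and sites near the authors' calling threshold may appear in some lists of a group and not in others. Where a value below differs from the one reported, the cause was not tested. Alternatives for regions, for the difference between the lines and for related genes, and the smaller peak sets for promoters, were chosen after seeing the data.

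Counts of keratin genes called (10 in MDA-MB-231 1DPTR, 16 in MDA-MB-231 10DPTR, 4 in PC3 1DPTR and 11 in PC3 10DPTR against ctrl) moved most with the window and the peak set. With the gene body only they were 2, 7, 0 and 7, and 4 for MDA-MB-231 10DPTR against 1DPTR, 2 for PC3 10DPTR against 1DPTR, 11, 12 and 11 for PC3 against MDA-MB-231 in ctrl, 1DPTR and 10DPTR, and 1 and 6 for the difference between the lines at 1DPTR and 10DPTR. Some keratin genes did not pass the filter with the gene body only, so these counts are over fewer genes. Of the 150 called pairs 52 stayed called there, 23 lost the call and 3 changed sign, and the rest were not tested. With the 50000 peaks of largest area they were 6 and 7 in MDA-MB-231 1DPTR and 10DPTR, 3 for PC3 10DPTR against 1DPTR, 19 for PC3 against MDA-MB-231 at 10DPTR and 2 for the difference between the lines at 1DPTR. With the upper part of each list by area they were 9 in MDA-MB-231 10DPTR, 2 in PC3 1DPTR and 2 for PC3 10DPTR against 1DPTR. With 25 kb on each side they were 17 in MDA-MB-231 1DPTR, 1 in PC3 1DPTR, 3 for PC3 10DPTR against 1DPTR and 11 for the difference between the lines at 1DPTR. With 5 kb, and with no filter, PC3 10DPTR against 1DPTR gave 2. With no scaling the counts were 9 in MDA-MB-231 10DPTR and 10 in PC3 1DPTR, and with the median ratio 10 in MDA-MB-231 10DPTR and 18 in PC3 10DPTR.

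With each list left out in turn the counts were 4 to 7 for MDA-MB-231 10DPTR against 1DPTR (4 without 1DPTR replicate 3), 0 to 5 for PC3 1DPTR (0 without 1DPTR replicate 1, and 1 without 1DPTR replicate 3, ctrl replicate 1 or ctrl replicate 3), 7 to 15 for PC3 10DPTR (7 without ctrl replicate 3) and 1 to 2 for PC3 10DPTR against 1DPTR (2 without 1DPTR replicate 1 or 10DPTR replicate 3). Counts of related genes called (32, 42, 20 and 56 in MDA-MB-231 1DPTR and 10DPTR and PC3 1DPTR and 10DPTR) were 20 to 29 for MDA-MB-231 1DPTR (20 without 1DPTR replicate 3) and 6 to 21 for PC3 1DPTR (6 without 1DPTR replicate 1, 9 without 1DPTR replicate 3, 12 without ctrl replicate 1 and 11 without ctrl replicate 3). They were 7, 11, 9 and 34 with the 50000 peaks of largest area, and 11, 17, 7 and 37 with the upper part by area. With the gene body only they were 21, 12 and 35 in MDA-MB-231 10DPTR, PC3 1DPTR and PC3 10DPTR, and with no scaling 19 in MDA-MB-231 1DPTR and 36 in PC3 10DPTR.

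With the replicate block the keratin counts were 12, 16, 5 and 14 in the 4 comparisons with ctrl, 7 and 1 between 10DPTR and 1DPTR in MDA-MB-231 and PC3, 30, 26 and 31 for PC3 against MDA-MB-231 in ctrl, 1DPTR and 10DPTR, and 8 and 12 for the difference between the lines. No count of calls moved by over 1.5 times under the block. In PC3, where same-numbered treated and ctrl lists were not read as pairs, KRT222 at 1DPTR and KRT32, KRT79 and KRT80 at 10DPTR were called only with the block.

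Of the cluster totals, the 12q difference of 1DPTR from ctrl was 0.28 with the 50000 peaks (adjusted p = 0.0533, exact permutation) and 0.20 with the upper part by area (adjusted p = 0.08, exact permutation). The 12q difference of 10DPTR from 1DPTR, not called, was 0.00322 with the 50000 peaks. The 17q difference of PC3 from MDA-MB-231 was -0.035 with no scaling and -0.062 scaled to the rest of the chromosome. Uncalled 17q differences changed sign: 1DPTR minus ctrl was 0.0098 with the 50000 peaks, 0.00057 with no flank and 0.16 with no scaling, and 10DPTR minus ctrl was 0.00142 with no flank, 0.075 with no scaling and 0.00737 scaled to the rest of the chromosome. For 10DPTR minus 1DPTR the 17q value was -0.021 with the 50000 peaks, -0.070 with the upper part by area and -0.083 with no scaling, and -0.00268 to 0.050 with each list left out (-0.00268 without PC3 10DPTR replicate 1). With the 50000 peaks the regions gained were 5 in MDA-MB-231 1DPTR, 5 in MDA-MB-231 10DPTR, 3 in PC3 1DPTR and 18 in PC3 ctrl against MDA-MB-231 ctrl, and those lost were 4 in MDA-MB-231 1DPTR, 2 between 10DPTR and 1DPTR in MDA-MB-231 and 1 in PC3 1DPTR.

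Log2 values of single keratin genes also changed sign. In MDA-MB-231 KRT17, uncalled in the report, was 0.85 and 0.93 at 1DPTR and 0.86 and 0.75 at 10DPTR with the 50000 peaks and the upper part by area, and KRT18 at 10DPTR against 1DPTR was 0.13 with the gene body only. KRT8 in PC3 10DPTR was -0.23 with the gene body only. For PC3 against MDA-MB-231 in ctrl, KRT85 was -0.0084 and KRT17 0.53 with the 50000 peaks, KRT17 was 0.54 with the upper part by area, and KRT15, KRT14 and KRT17 were 0.44, -0.23 and 0.11 with 5 kb. At 1DPTR KRT1, KRT4 and KRT15 were -0.22, -0.33 and 0.56 with 5 kb. At 10DPTR KRT8 was 0.28 with the median ratio, KRT18 was -0.16 with the 50000 peaks and -0.035 with the gene body only, KRT15 was 0.67 with 5 kb, KRT9 was -0.26 with the 50000 peaks and -0.014 with 25 kb, and KRT14 was -0.26 with the 50000 peaks. For the difference between the lines at 1DPTR, KRT75 was 0.15 with 5 kb, KRT6A 0.16 and KRT71 0.14 with the 50000 peaks, and KRT71 0.020 and KRT17 -0.82 with the upper part by area. At 10DPTR KRT75 was 1.45 with the gene body only and 1.30 with 5 kb, KRT4 was 0.92 with the 50000 peaks and 0.69 with 5 kb, and KRT17 was -0.75 with the 50000 peaks and -0.84 with the upper part by area.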
